A study of Mus musculus with 6 samples.

Results

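The mitochondrial ribosomal protein genes were taken as all protein-coding genes whose symbol is Mrpl or Mrps followed by a number. The rule found 78 of the 36564 genes with a value, 49 of the large subunit (Mrpl) and 29 of the small subunit (Mrps). Messenger RNA had been sequenced from whole hearts of 32-week-old mice. The controls, libraries 1, 2 and 3, came from ApoE-/- littermates. The double mutants, libraries 4, 5 and 6, were so called from their label, ApoE-/- Timp3-/-, which adds an allele of Timp3, the gene of a protease inhibitor. Both groups were labelled ApoE-/-, after the gene of a lipoprotein that clears cholesterol from blood, and no mouse with an intact Apoe was compared. The labels name no transgene, Cre line or treatment, and no limit of either allele.

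Mitochondria keep their own ribosome, the mitoribosome, which translates the few messenger RNAs of the mitochondrial genome into core subunits of the respiratory chain and of ATP synthase. Its ribosomal RNAs come from the mitochondrial genome, but its proteins are all encoded in the nucleus, made in the cytosol and imported. The small subunit binds and decodes the messenger, and the large subunit joins the amino acids and passes the new chain to the inner membrane. The heart depends on oxidative phosphorylation, and inherited defects of several of these proteins, among them MRPL3, MRPL44 and MRPS22, cause cardiomyopathy.

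Expression was given as FPKM, fragments counted per kilobase of a transcript and relative to the mapped fragments of its library, and was summed over the transcripts of a gene. The coverage in the files added up to between 654 and 1339 aligned megabases per library, with library 2 the deepest. Cardiomyocyte markers were abundant in every library, with a summed level of the 8 markers of 14090 to 23628 FPKM after scaling between libraries. Timp3 checked the labels in part. It was listed at 52.1, 37.99 and 36.3 FPKM in the controls against 20.2, 28.0 and 29.6 in the double mutants, so it was lower in every double mutant but present (log2 difference -0.61, adjusted p 0.288 in limma), and the sources used here do not say which part of the gene the allele removes. Apoe was listed at 1.84 to 4.15 FPKM over all 6 libraries. The libraries differed in the tissue they held: summed atrial markers ranged from 122 to 1455 scaled FPKM in the controls and from 173 to 1439 in the double mutants, red blood cell markers reached 12225 in library 4 against 113 to 1191 in the others, and fat cell markers reached 165 in library 1 against 1.05 to 28.2.

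Nearly all of these genes were well expressed in the heart. A gene was tested where its deposited FPKM averaged at least 1 and its longest transcript had at least 300 nt, which left 11380 genes of all kinds and 77 of the 78 genes described here. FPKM were divided by a factor per library (0.898 to 1.17) before levels were compared, and these scaled values are given below as mean ± SD, while values of single libraries are as deposited. The median level of the 77 genes was 16.3 scaled FPKM, against 5.00 for all genes tested, and 73 of them lay above that overall median. The large subunit had a median of 16.6 and the small subunit one of 13.2. Among the 74 genes never listed at 0, 67 had a level of at least 5 and under 50, 4 had 50 or more, and 3 were under 5.

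**Figure D1:**
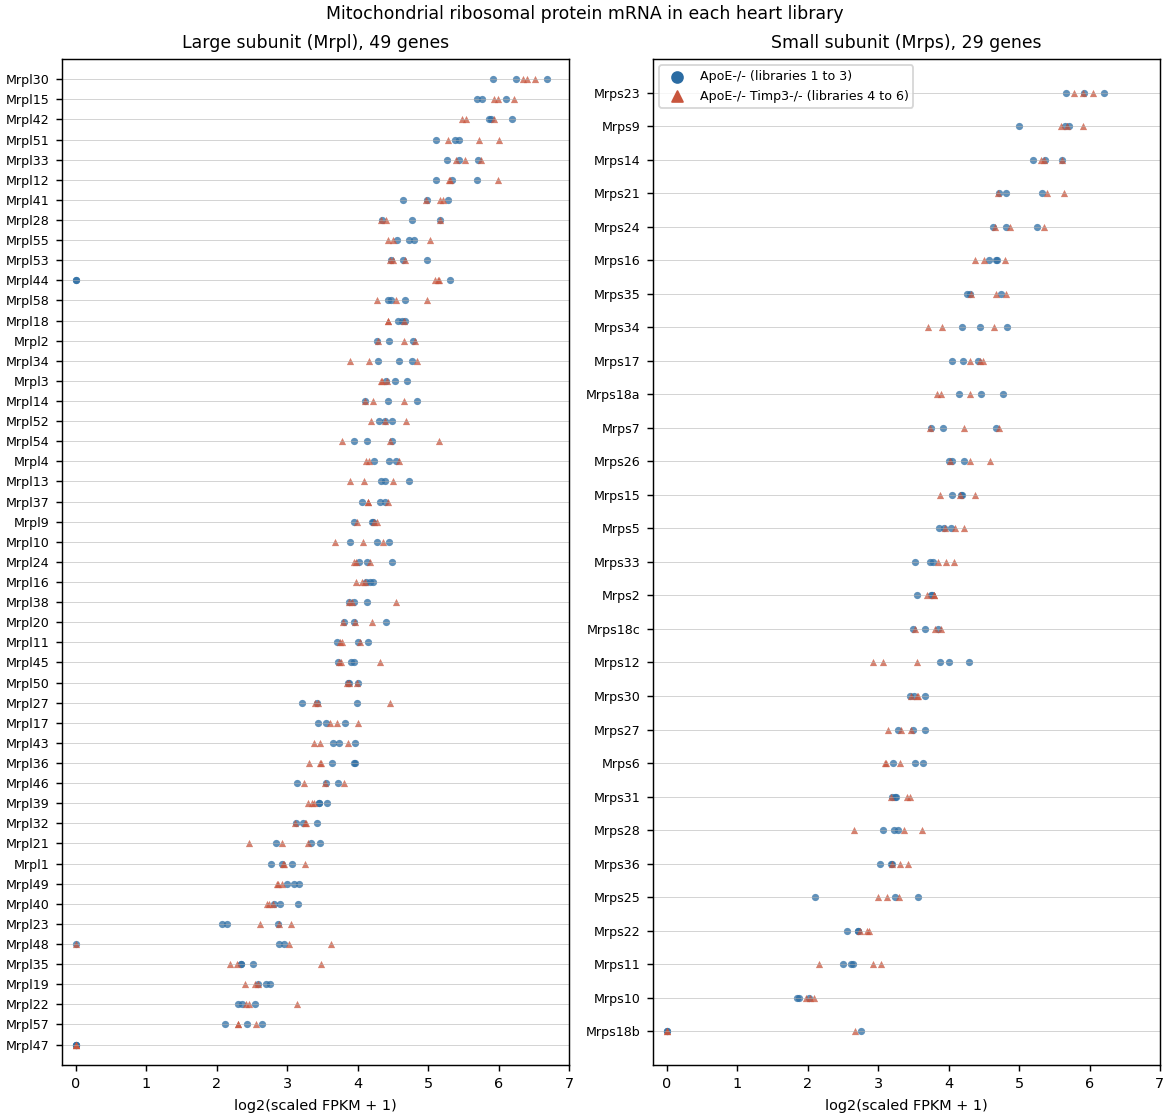
Each row is 1 gene and each point 1 library, on a log2 scale of scaled FPKM plus 1 (blue circles, ApoE-/- libraries 1 to 3; red triangles, ApoE-/- Timp3-/- libraries 4 to 6), with the 49 large subunit genes on the left and the 29 small subunit genes on the right, ordered by level. Most genes have the 2 groups mixed along the row, and points at 0 belong to Mrpl44, Mrpl47, Mrpl48 and Mrps18b.

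The highest large subunit gene was Mrpl30, which encodes a protein with a bacterial counterpart. It was listed at 69.7, 103.0 and 69.1 FPKM in the controls against 92.7, 74.9 and 81.6 in the double mutants. Library 2 was its highest and library 3 its lowest, both controls, so the groups overlapped. Mrpl15, another protein of the conserved core, was listed at 59.2, 68.1 and 49.2 FPKM in the controls against 75.5, 53.8 and 63.2 in the double mutants, again with the groups overlapping. The lowest tested large subunit genes were Mrpl57, a protein that bacteria lack, and Mrpl22, whose protein lines the tunnel through which the new chain leaves. Mrpl57 was listed at 3.92, 5.27 and 4.06 FPKM in the controls against 5.01, 3.54 and 3.99 in the double mutants. Mrpl22 was listed at 4.60, 4.14 and 4.46 FPKM in the controls against 7.99, 4.04 and 4.41 in the double mutants. In Mrpl22 library 4 alone stood above the rest, and the other 5 libraries lay close together.

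In the small subunit the highest genes were Mrps23, which bacteria lack, and Mrps9, a conserved protein of the subunit's head. Mrps23 was listed at 57.9, 73.1 and 55.0 FPKM in the controls against 66.6, 53.1 and 54.4 in the double mutants. Mrps9 was listed at 36.4, 51.5 and 45.3 FPKM in the controls against 60.2, 44.9 and 48.01 in the double mutants. In both genes the groups overlapped, with library 2 or 4 at the top. Mrps10, likewise of the head, was the lowest gene with a value in every library, at 3.14, 3.06 and 2.39 FPKM in the controls against 3.34, 2.62 and 3.12 in the double mutants. The highest gene of the 74, Mrpl30 at 81.9 scaled FPKM, thus stood far above the lowest, Mrps10 at 2.93, on a scale that is already per length of transcript.

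No gene of the mitoribosome differed between the genotypes past the threshold. With limma on log2(scaled FPKM + 1), two-sided, and Benjamini-Hochberg adjustment over all genes tested, 0 of the 77 genes had an adjusted p under 0.05, where 0.0439% of all genes tested did (5 genes). At an unadjusted p under 0.05, 2 genes were lower in the double mutants, Mrps12 and Mrpl36, which is 2.60% of the 77 against 5.23% of all genes tested. 1 gene was higher, Mrpl44, or 1.30% against 6.95% of all genes tested. Differences on this log2 scale understate the change of low genes. The labels call the controls littermates and say nothing more of how the 6 samples relate, so a p-value here reflects only how these particular samples vary.

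The median log2 difference, double mutant minus control, was 0.04 over the 77 genes and -0.01 over all genes tested, and 42 of the 77 lay above 0, against 48.8% of all genes tested. For 68 of the 77 genes the 95% interval of the difference lay within 1 of 0 on the log2 scale, and for 29 within 0.5. Leaving out Mrpl44, Mrpl48 and Mrps18b, which were listed at 0 in some libraries, gave a median of 0.03. When each library was instead scaled to the same total FPKM, the median of all genes moved to -0.16 and that of these genes to -0.14, and at an unadjusted p under 0.05 the lower genes numbered 21 of 77 and the higher 1, where 13.7% of all genes tested were lower and 2.91% higher under that scaling. RNA was taken from bulk hearts, so fewer cells of a type and less RNA per cell cannot be told apart.

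**Figure D2:**
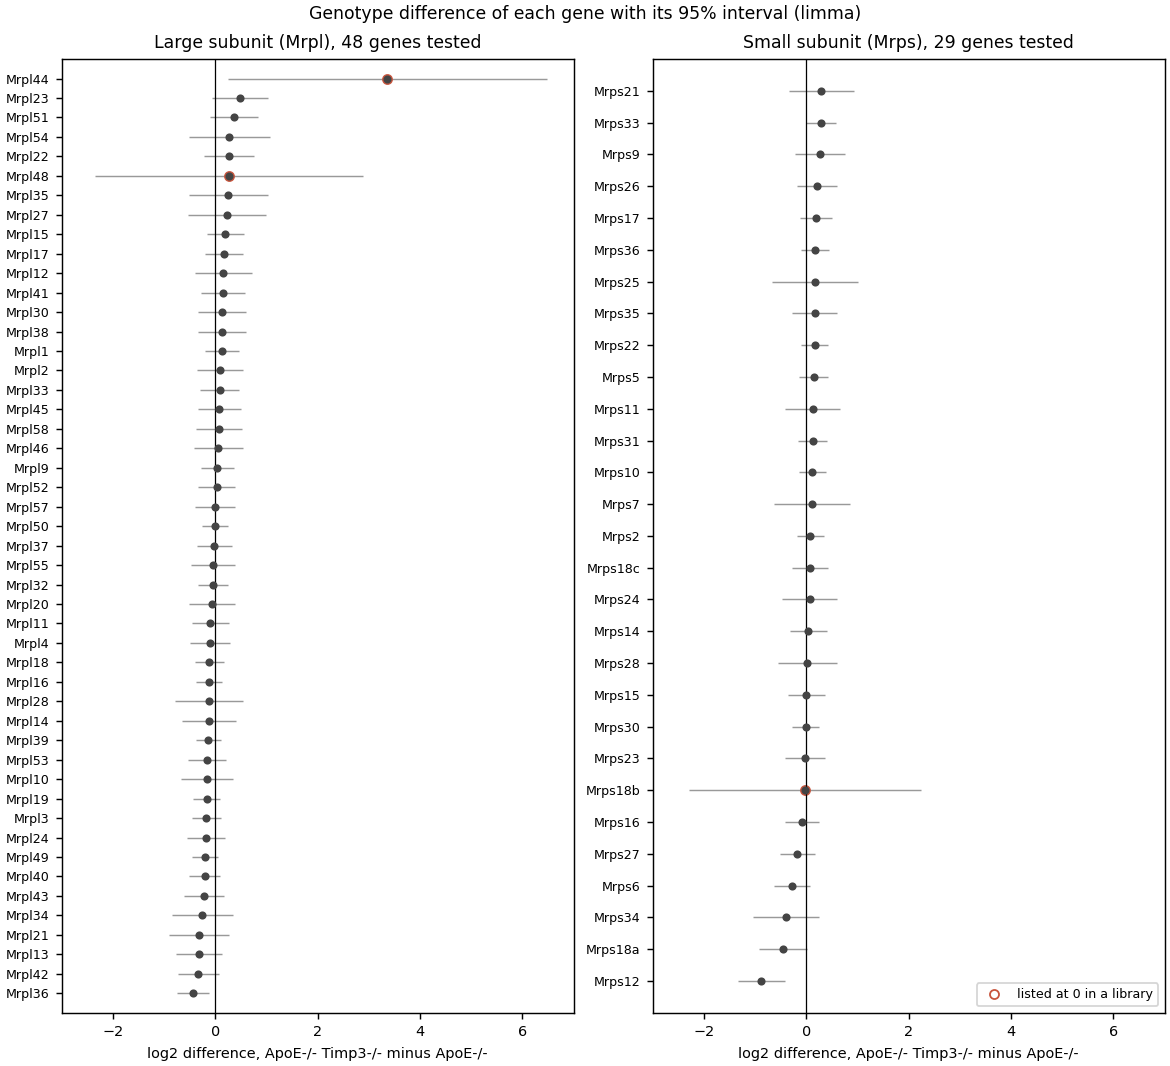
The log2 difference of each tested gene (x axis, ApoE-/- Timp3-/- minus ApoE-/-, limma estimate) is drawn with its 95% interval, 48 large subunit genes on the left and 29 small subunit genes on the right, and open red circles mark genes listed at 0 in a library. Most estimates lie close to 0, Mrps12 is the lowest at -0.88, and the wide intervals of Mrpl44, Mrpl48 and Mrps18b come with their listed zeros.

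In the small subunit, Mrps12 was the gene whose groups stood furthest apart. It encodes the counterpart of bacterial protein S12, which lies at the decoding centre and sets the accuracy of codon reading. Mrps12 (chr7:29524660-29526839, minus strand, build NCBIM37) was listed at 15.9, 18.8 and 13.9 FPKM in the controls against 10.99, 5.91 and 7.45 in the double mutants. Every control was above every double mutant, with means of 15.8 ± 2.57 (SD, n = 3) and 8.23 ± 2.21 (SD, n = 3) scaled FPKM. The log2 difference was -0.88 (SE 0.197), larger than the spread between replicates, but its adjusted p was 0.240 (limma, unadjusted p 0.00276), which missed the threshold. Leaving out 1 library at a time gave log2 differences of -1.06 to -0.75 and adjusted p of 0.181 to 0.573 in limma. Of the 18 alternatives, 1 passed the threshold, the fit in which libraries were weighted by their spread (log2 difference -0.98, adjusted p 0.0491 in limma).

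Both expressed transcripts of Mrps12 had the same direction. The longer, of 722 nt, was listed at 10.7, 13.4 and 9.12 FPKM in the controls against 8.21, 4.02 and 4.17 in the double mutants. The shorter, of 455 nt, was listed at 5.26, 5.34 and 4.76 FPKM in the controls against 2.78, 1.89 and 3.28 in the double mutants. In each, the lowest control lay above the highest double mutant. A further reference transcript of 883 nt was listed at 0 in all 6 libraries.

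Mrps12 starts head to head with Sars2, the gene of the mitochondrial seryl-tRNA synthetase, on the other strand, and their 2 starts lie 171 bp apart in the files. The stretch between the starts is printed because both genes are transcribed out of it while their means differed in opposite directions. It is from RefSeq, build GRCm38.p6, chr7:28741822-28741967, minus strand, 146 bases. It is written toward Mrps12, so it begins beside Sars2, and the label names the pair and not the direction. Capitals mark CCAAT, which was found 3 times when both strands were searched.
Mrps12 to Sars2: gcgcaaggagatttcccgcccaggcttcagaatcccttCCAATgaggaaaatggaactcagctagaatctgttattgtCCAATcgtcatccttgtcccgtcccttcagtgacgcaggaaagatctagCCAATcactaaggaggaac
Sars2 was listed at 2.73, 1.99 and 2.01 FPKM in the controls against 4.13, 2.52 and 2.35 in the double mutants. Its groups overlapped through library 1, with means of 2.16 ± 0.184 and 3.05 ± 0.885 scaled FPKM (SD, n = 3 each), a log2 difference of 0.34 and adjusted p of 0.502 in limma. The difference between the responses of Mrps12 and Sars2 was not tested.

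Mrps18a came next among the lower small subunit names, although the protein sits in the large subunit of solved mitoribosome structures. It was listed at 19.5, 26.6 and 19.4 FPKM in the controls against 19.2, 11.9 and 14.0 in the double mutants. On the scaled values library 4 lay above library 1, so the groups overlapped, with a log2 difference of -0.45 (SE 0.201, adjusted p 0.432 in limma). With reference transcripts alone, the transcripts that Cufflinks assembled left out, the difference was -0.0032.

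On the higher side, Mrps33, which bacteria lack, was listed at 12.2, 12.8 and 11.3 FPKM in the controls against 16.3, 13.1 and 13.5 in the double mutants. Every double mutant lay above every control, but the difference was small, 0.29 on the log2 scale (SE 0.126, adjusted p 0.421 in limma). With only its strongest transcript counted the difference turned to -0.05. The 2 other small subunit genes with non-overlapping groups were Mrps36 and Mrps22, both higher, by 0.17 and 0.16 on the log2 scale, with adjusted p of 0.613 and 0.615 in limma. Mrps36 was named as a ribosomal protein and later assigned to the oxoglutarate dehydrogenase complex.

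In the large subunit, Mrpl36, the counterpart of the smallest protein of the bacterial large subunit, had the smallest p. Mrpl36 (chr13:73468457-73469623, plus strand, build NCBIM37) was listed at 13.3, 14.5 and 13.5 FPKM in the controls against 10.3, 7.96 and 10.3 in the double mutants. Every control was above every double mutant, with means of 13.5 ± 1.78 and 9.70 ± 0.724 scaled FPKM (SD, n = 3 each). The log2 difference was -0.43 (SE 0.134), and its adjusted p was 0.292 (limma, unadjusted p 0.0143). No alternative brought it past the threshold.

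Mrpl42, a protein that bacteria lack, was listed at 68.1, 72.4 and 53.0 FPKM in the controls against 61.7, 40.9 and 44.1 in the double mutants. Libraries 5 and 6 were its lowest, but library 4 lay within the control range, and the log2 difference of -0.33 (SE 0.167) had an adjusted p of 0.496 in limma. Assembled transcripts held 43.3% of its summed FPKM. Its reference transcript alone was listed at 52.9, 53.7 and 30.4 FPKM in the controls against 44.8, 0 and 10.99 in the double mutants, and the difference was then -2.45 (adjusted p 0.583 in limma), with library 5 at 0. The other 5 genes whose controls all lay above the double mutants were Mrpl49, Mrpl40, Mrpl19, Mrpl39 and Mrpl16, with log2 differences of -0.21 to -0.12 and adjusted p of 0.504 to 0.698 in limma. With Mrps12 and Mrpl36 these made 7 of the 77 genes, or 9.09%, where 9.23% of all genes tested were lower without overlap. In the other direction the 3 genes Mrps33, Mrps36 and Mrps22 made 3.90%, where 9.97% of all genes tested were higher without overlap. The share of lower genes was thus close to that of all genes, and the share of higher genes was below it.

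Mrpl23 and Mrpl51 had the smallest p among the higher large subunit genes with a value in every library. Mrpl23, whose protein sits at the exit of the peptide tunnel, was listed at 4.01, 6.36 and 2.98 FPKM in the controls against 7.49, 5.74 and 5.19 in the double mutants. Library 2 lay among the double mutants, and the log2 difference of 0.49 (SE 0.233) had an adjusted p of 0.466 in limma. Mrpl51, which bacteria lack, was listed at 39.2, 42.8 and 37.5 FPKM in the controls against 64.6, 34.1 and 52.4 in the double mutants. Libraries 4 and 6 were high and library 5 was the lowest as deposited, so the groups overlapped, with a log2 difference of 0.36 (SE 0.201, adjusted p 0.542 in limma). In libraries 4 and 6 the sum included an assembled transcript of 23.1 and 20.0 FPKM over the first part of the gene. Without assembled transcripts the difference was -0.09.

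Endothelial and fibroblast markers had lower values in the double mutants, as Mrps12 and Mrpl36 did, while the median log2 difference of the 77 genes was 0.04. Of 8 cardiomyocyte markers 7 had a log2 difference above 0. All 5 endothelial markers had a log2 difference below 0, from -0.66 to -0.18. At an unadjusted p under 0.05 in limma 3 of them were lower, where 5.23% of all genes tested were. Their summed level was 337 to 471 scaled FPKM in the controls and 288 to 369 in the double mutants. All 5 fibroblast markers were also below 0, from -0.80 to -0.02, and 3 of them were lower at an unadjusted p under 0.05 in limma. Their summed levels were 177 to 261 scaled FPKM in the controls and 174 to 206 in the double mutants. Most of these sums was Dcn, the marker at -0.02, with means of 153 and 150 scaled FPKM. No endothelial or fibroblast marker was listed at 0, and the part of these cells in the values of Mrps12 and Mrpl36 was not tested.

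Large and small subunit genes had medians close to 0. The median log2 difference was -0.01 over the 48 tested large subunit genes and 0.08 over the 29 small subunit genes, a difference of -0.09 that lay between -0.13 and -0.03 under the 18 alternatives and, added later, with Mrps18a and Mrps30 counted as large subunit proteins as structures place them. Of the large subunit genes 22 lay above 0 and 26 below, and of the small subunit genes 20 above and 9 below. Within each library the mean deviation of the large subunit genes from their own means, minus that of the small subunit genes, was 0.02, 0.01 and 0.02 in the controls and 0.0022, 0.01 and -0.07 in the double mutants, on the log2 scale. Every control lay above every double mutant, but narrowly, with control library 2 at 0.0143 and double mutant library 5 at 0.0120. Library 6 lay furthest from the others. The small subunit genes included Mrps21, whose sum in library 6 held an assembled fragment of 28.3 FPKM. In mean log2 level the large subunit genes stood above the small subunit genes by 0.06 in library 6 and by 0.13 to 0.15 in the other 5. These values were not tested.

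On the scaled values, the genes shared a pattern over libraries that cut across genotype. Averaged over the 74 genes never listed at 0, the deviation from each gene's own mean was -0.17, 0.19 and -0.01 in the control libraries 1, 2 and 3 and 0.19, -0.07 and -0.13 in the double mutant libraries 4, 5 and 6, on the log2 scale. Libraries 2 and 4, 1 of each genotype, were high, and libraries 1 and 6, again 1 of each, were low. In library 2, 63 of the 74 genes lay above their own mean, in library 4 it was 62, and in library 1 only 13. The 2 group means differed by -0.0038, against a range within the controls of 0.36 and within the double mutants of 0.32. With each library instead scaled to the same total, the control deviations were 0.0046, 0.20 and 0.07. Those of the double mutants were -0.03, -0.12 and -0.11, so every control lay above every double mutant. With the median deviation of all genes taken off, libraries 1 to 6 were then at -0.15, 0.19, -1.1e-05, 0.16, -0.07 and -0.13. With no further scaling, library 1 was at 0.03 and library 5 was the lowest, at -0.21.

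**Figure D3:**
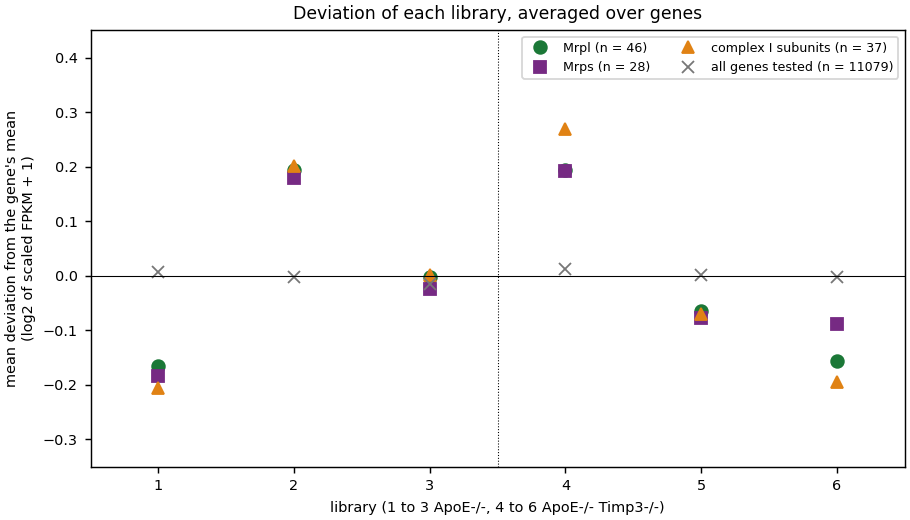
For each library (x axis, 1 to 3 ApoE-/-, 4 to 6 ApoE-/- Timp3-/-) the points give the mean deviation of a set of genes from each gene's own mean, in log2 units of scaled FPKM plus 1, for large subunit genes (green circles), small subunit genes (purple squares), complex I subunits (orange triangles) and all genes tested that were never listed at 0 (crosses). Large and small subunit points nearly coincide, and both sets follow complex I, high in libraries 2 and 4 and low in 1 and 6, while all genes lie near 0.

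The subunits of respiratory complex I, the enzyme that takes electrons from NADH, followed the same course. Their mean deviations over 37 genes were -0.21, 0.20 and 0.00051 in the controls and 0.27, -0.07 and -0.19 in the double mutants. 60 of the 77 tested mitoribosomal genes, or 77.9%, had their highest scaled value in library 2 or 4, against 42.9% of all genes tested. This share was higher in 2 other sets, at 94.6% of complex I subunits and 88.2% of cytosolic ribosomal protein genes. The mitoribosomal count lay between 50 and 63 with other scalings of the libraries or with reference transcripts alone, alternatives chosen after seeing the data. It was 50 with the same total, or 64.9%, against 26.8% of all genes tested under that scaling. With reference transcripts alone it was 63, or 81.8%, against 41.8% of all genes tested. Summed over the 74 genes, the scaled level was 1233, 1669 and 1406 FPKM in the controls against 1686, 1363 and 1318 in the double mutants.

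Several properties of the libraries moved with the pattern of the scaled values, and their part in it was not tested. The aligned megabases were 654, 1339 and 827 in the controls against 910, 732 and 683 in the double mutants, so the libraries ranked by depth in the same order within each group as by these genes. The 5 atrial markers had mean deviations of 1.72, -1.87 and -2.45 in the controls and -1.60, 1.75 and 2.45 in the double mutants, and were thus high in libraries 1, 5 and 6, the 3 libraries in which the mitoribosomal genes were lowest. Other genes with a longest transcript of up to 1000 nt had deviations of -0.15, 0.04 and -0.16 in the controls and 0.26, 0.03 and -0.01 in the double mutants. The 24 mitoribosomal genes of that length stood at 0.24 in library 2 and 0.23 in library 4, and the 50 longer ones at 0.17 and 0.18, so both length classes showed it. The proteins of the cytosolic ribosome took a different course, with 73 genes at -0.21, 0.01 and -0.24 in the controls and 0.43, 0.05 and -0.03 in the double mutants. Their median log2 difference was 0.33 and 68 of 76 tested lay above 0, but 0 had an adjusted p under 0.05 in limma. At an unadjusted p under 0.05, 25 were higher, or 32.9%, against 6.95% of all genes tested, and 1 was lower. Red blood cell markers were likewise highest in library 4. Their mean deviations were -0.50, -1.03 and -2.38 in the controls and 3.78, -0.62 and 0.75 in the double mutants. Their part in the values of the cytosolic ribosomal protein genes was not tested.

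The mitoribosomal genes differed in how far they varied between libraries. The median SE of the log2 difference was 0.166 over the 77 genes, against 0.161 over all genes tested. Among the 74 genes never listed at 0, the coefficient of variation over all 6 libraries had a median of 16.3% and the highest library exceeded the lowest 1.53-fold in the median gene. The steadiest was Mrpl50, at a coefficient of variation of 5.04%, followed by Mrps30 at 6.00% and Mrpl16 at 6.18%. The 3 most variable genes were Mrpl35, Mrpl54 and Mrpl27, at 49.7%, 39.6% and 39.5%. All 3 had a library in which Cufflinks assembled a transcript of its own. The steady Mrpl16 also drew 15.0% of its summed FPKM from assembled transcripts. The part of such transcripts in the spread was not tested.

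Mrpl35, a conserved protein of the large subunit, was listed at 4.75, 4.72 and 3.78 FPKM in the controls against 3.63, 9.13 and 3.93 in the double mutants. Library 5 alone was high, and there the reference transcript stood at 2.70 FPKM and an assembled transcript of 446 nt at 6.42. Mrpl54, which bacteria lack, was listed at 16.9, 21.5 and 15.2 FPKM in the controls against 21.4, 31.2 and 12.8 in the double mutants. Library 5 was again the highest, as the sum of 9.65 FPKM for the reference transcript, the lowest of the 6, and 21.5 for an assembled fragment of 315 nt. With reference transcripts alone the log2 difference of Mrpl35 turned from 0.25 to -0.25 and that of Mrpl54 from 0.28 to -0.27.

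Mrpl27, whose bacterial counterpart reaches into the peptidyl transferase centre, was listed at 11.4, 15.0 and 7.65 FPKM in the controls against 21.4, 8.58 and 10.0 in the double mutants. Its 2 highest libraries, 2 and 4, were those in which the value came from an assembled transcript of 634 or 631 nt, in place of the reference transcript of 756 nt that carried it in the other 4. Mrps21 gave a further case in library 6, where an assembled fragment of 368 nt added 28.3 FPKM to a sum of 49.2 while a reference transcript that held 8.04 to 15.3 FPKM in the other 5 was listed at 0. FPKM divides by transcript length, and the part of length in these values was not tested.

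Mrpl44 was listed at 0 in 2 libraries of the same group. It encodes a protein with a fold of the ribonuclease III family in the large subunit. Mrpl44 (chr1:79772593-79778020, plus strand, build NCBIM37) has 1 reference transcript, of 1424 nt. Its FPKM was 0, 38.9 and 0 in control libraries 1, 2 and 3 against 35.4, 30.7 and 33.5 in the double mutants. The 4 values above 0 lay close together and put the gene among the higher large subunit genes. In libraries 1 and 3 the file gives no defined isoform fraction for the transcript, lists its confidence interval from 0 to 0, and yet marks it as having full read support. That mark also stands on transcripts with a defined fraction of 0, such as the longest of Mrps12, so it was not taken as a sign of expression.

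The start of Mrpl44 overlaps the start of Wdfy1, a gene on the other strand, by 126 bp. A Wdfy1 transcript there also had no defined isoform fraction in libraries 1 and 3, and Wdfy1 itself was listed at 0 in all 3 controls and at 4.40, 7.34 and 5.49 FPKM in the double mutants. Wdfy1 was among the 5 genes of all those tested with an adjusted p under 0.05 (0.00918 in limma), and Mrpl44 was not (adjusted p 0.381 in limma). Without library 2, which leaves only zeros among the controls of Mrpl44, its adjusted p was 8.46e-05 in limma, so that 1 library decided the call. No fold is given for Mrpl44, because the files hold no counts behind its listed zeros. Transcripts without a defined fraction numbered 265, 288 and 256 in the controls against 129, 52 and 64 in the double mutants, and all were listed at 0.

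**Figure D4:**
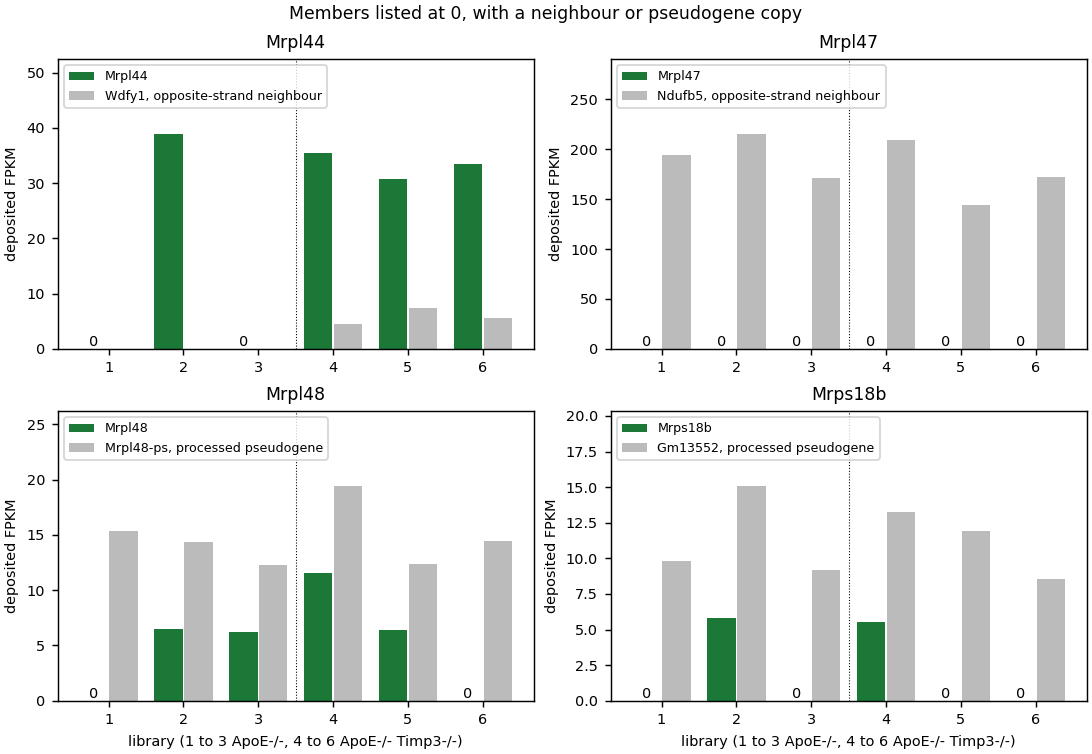
Bars give deposited FPKM in each library (x axis, 1 to 3 ApoE-/-, 4 to 6 ApoE-/- Timp3-/-) for the 4 genes listed at 0 in a library (green) and for a neighbour or pseudogene (grey), and a 0 is written where the green value is listed at 0. Mrpl44 is at 0 in libraries 1 and 3 beside Wdfy1, Mrpl47 is at 0 in all 6 beside Ndufb5 at 144 to 215 FPKM, and Mrpl48 and Mrps18b have 2 and 4 zeros beside pseudogenes with a value in every library.

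Mrpl47, a conserved protein near the tunnel exit, was listed at 0 in all 6 libraries and could not be tested. Its main transcript (chr3:32624319-32636069, minus strand, build NCBIM37, 3364 nt) was marked as having full read support in all 6. Its start overlaps by 158 bp that of Ndufb5, a complex I subunit gene on the other strand, which was listed at 194, 215 and 171 FPKM in the controls against 210, 144 and 172 in the double mutants. The far end of Mrpl47 also overlaps Actl6a by 1572 bp, and Actl6a was listed at 0 in all 6 libraries too.

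Mrpl48, a protein of the central protuberance of the large subunit, was listed at 0, 6.46 and 6.23 FPKM in the controls against 11.5, 6.42 and 0 in the double mutants. The zeros fell in libraries 1 and 6, 1 of each genotype. Its values came from a transcript of 947 nt, and 2 genes on the other strand, Cox20b and Rab6a, overlap the gene's span. Mrpl48-ps, a processed pseudogene 98.1% identical over 636 bases, was listed at 12.2 to 19.4 FPKM in all 6 libraries.

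Mrps18b, a small subunit protein and 1 of a family of S18 homologues with Mrps18a and Mrps18c, was listed at 0, 5.83 and 0 FPKM in the controls against 5.51, 0 and 0 in the double mutants. Only libraries 2 and 4, the deepest of each group, had a value. Its pseudogene Gm13552, 99.8% identical over 417 bases, was listed at 9.79, 15.1 and 9.16 FPKM in the controls against 13.3, 11.9 and 8.57 in the double mutants. A listed 0 in some library thus touched 3 of the 77 genes tested, or 3.90%, where it touched 2.64% of all genes tested.

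All 4 genes with zeros start close to a gene on the other strand. A neighbour of that kind, with its start within 1000 bp, was found for 28 of the 78 genes, or 35.9%, against 15.1% of all protein-coding genes tested. In 12 of the 78, or 15.4%, the 2 starts overlapped, against 4.35%. Among the 251 protein-coding genes tested that were listed at 0 in some library 32.7% had such a neighbour, and among the 9570 never listed at 0 14.6% did. Most of the 12 overlapping starts came with a value in every library, as in Mrpl14 beside Tmem63b, Mrpl18 beside Tcp1, and Mrpl43 beside Twnk, the gene of the mitochondrial DNA helicase. Among the 28, it was the partner and not the mitoribosomal gene that was listed at 0 in all 6 libraries in 3 cases, namely Mtbp beside Mrpl13, Eme1 beside Mrpl27 and Eme2 beside Mrps34.

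In 1 head-to-head pair both genes encode mitoribosomal proteins, Mrpl46 of the large subunit and Mrps11 of the small subunit on chromosome 7, whose starts overlap. Mrpl46 was listed at 9.08, 12.2 and 9.85 FPKM in the controls against 13.2, 9.49 and 8.51 in the double mutants. Mrps11 was listed at 5.42, 5.26 and 4.74 FPKM in the controls against 6.74, 6.47 and 3.52 in the double mutants. Both had overlapping groups, with log2 differences of 0.06 and 0.12 and adjusted p of 0.941 and 0.873 in limma.

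Reads of several members can also belong to processed pseudogenes, copies of spliced messages put back into the genome. Of the 78 genes, 20 matched a transcript of another gene at 95% identity or more. The match had to span at least 200 bases and 50% of the shorter transcript. There were 26 such matches, here called copies, and 19 of them had a value in the files. Not all were processed pseudogenes: Mrps25 matched the protein-coding gene Nr2c2 on the opposite strand, and Mrpl53 matched another transcript, Gm42688, at 100%. The sources used here do not say how reads that fit several places were placed, so the split between a gene and its copy is uncertain. For 12 genes the copies included processed pseudogenes with a value in the files. Mrpl23 stood at a mean of 5.30 scaled FPKM against 43.1 for Mrpl23-ps1, which is 100% identical over 507 bases, so that 89.1% of the summed level was listed under the copy. Mrpl51 stood at 44.9 against 92.3 for Gm14017, and Mrps36 at 8.39 against 33.4 over 3 copies.

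**Figure D5:**
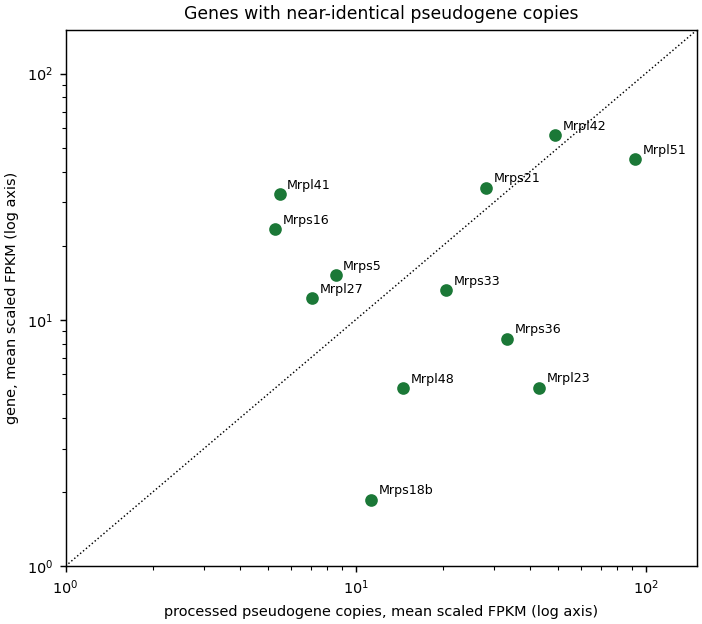
Each point is a gene with processed pseudogene copies of at least 95% identity, at its own mean scaled FPKM (y axis, log scale) against the sum of its copies (x axis, log scale), and the dotted line marks equal levels. Points below the line, among them Mrpl23, Mrps36, Mrps18b, Mrpl48, Mrps33 and Mrpl51, had more signal listed under the copies than under the gene.

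Adding the copies changed levels more than directions. With Mrpl23-ps1 added, Mrpl23 was at 43.6, 51.2 and 36.4 FPKM in the controls against 67.9, 44.5 and 47.3 in the double mutants, and the log2 difference went from 0.49 to 0.34. With Gm6419 added, Mrpl42 was at 123.2, 123.2 and 100.3 FPKM in the controls against 115.2, 81.6 and 91.0 in the double mutants, and the difference went from -0.33 to -0.20. With Gm13552 added, Mrps18b was above 0 in every library, at 9.79, 20.9 and 9.16 FPKM in the controls against 18.8, 11.9 and 8.57 in the double mutants. These sums were not tested. Mrps12 and Mrpl36, the 2 genes with the smallest p among those never listed at 0, had no such copy.

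The promoters of these genes were read from RefSeq (build GRCm38.p6), as windows of 250 bases before to 50 after the start, which were found for 69 of the 78 genes. Both strands were searched for 4 short sets of letters known as cores of factor motifs, whose ends can overlap. CCGGAAG, a core bound by ETS family factors such as GABPA, was in 26 of the 69 windows, or 37.7%, against 21.1% of protein-coding genes tested and 9.93% of all genes in the table. AAGATGGC, a core bound by YY1, was in 12, or 17.4%, against 5.62% and 3.19%. GCATGCGC, a core bound by NRF1, was in 8, or 11.6%, against 6.33% and 3.05%. TATAAA was in 5, or 7.25%, against 9.01% and 15.7%. Any of the first 3 was in 38 windows, or 55.1%, against 29.8% and 14.9%. The median GC content of the windows was 58.3%, against 61.3% for protein-coding genes tested, and windows were not matched for base composition, whose part in these shares was not tested. These are matches of letters and not measured sites.

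The stretches of 29 bases below show the ETS letters, in capitals, for the 5 members named by rule whose letters and flanks lay wholly upstream of the start, in the direction of the gene. They are printed to show the letters that recur, and what flanks them, in members described above. In order they lie at chr11:58171600-58171628 (plus strand), chr11:94653725-94653753 (plus), chr7:100583147-100583175 (minus), chr6:125192099-125192127 (plus) and chr17:46110967-46110995 (plus), build GRCm38.p6, and in Mrpl48 the capitals are the reverse complement.
Mrpl22: cttttccggtcCCGGAAGccggcctcgga
Mrpl27: gtccgcaagacCCGGAAGtagatctatcc
Mrpl48: ggttttaaaaaCTTCCGGaaccaagatgc
Mrpl51: caggggctaaaCCGGAAGtatttgactgg
Mrps18a: acacccctgctCCGGAAGcggaagtgcac
The letters begin 53 bases before the start in Mrpl22, 55 in Mrpl27, 34 in Mrpl48, 90 in Mrpl51 and 26 in Mrps18a. Of these 5 genes Mrps18a had the lowest log2 difference, -0.45, and Mrpl51 the highest, 0.36.

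The regulators that bind or act at such promoters showed no called difference. Of 9 regulators tested, 0 had an adjusted p under 0.05 and 0 an unadjusted p under 0.05 in limma. Ppargc1a, the coactivator that drives mitochondrial biogenesis, was listed at 12.2, 6.495 and 8.26 FPKM in the controls against 8.74, 15.9 and 13.2 in the double mutants. Its groups overlapped, and the log2 difference of 0.52 had an adjusted p of 0.502 in limma. Gabpb1, the partner of GABPA, followed by p with a log2 difference of 0.16 (adjusted p 0.656 in limma). Nrf1 stood at 1.70 ± 0.138 in the controls and 2.01 ± 0.133 scaled FPKM in the double mutants (SD, n = 3 each) without overlap, with a log2 difference of 0.16 and adjusted p of 0.656 in limma. Gabpa itself was at 4.91 to 7.48 FPKM in 4 libraries and listed at 0 in libraries 2 and 4.

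The other genes of mitochondrial translation gave few differences either. The 5 mitoribosomal proteins with other names, such as Dap3 and Ptcd3, had a median log2 difference of -0.0021, with 0 at an unadjusted p under 0.05, and the 2 with the smallest p were Chchd1 (-0.09) and Ptcd3 (-0.05), with adjusted p of 0.857 and 0.916 in limma. Of 11 translation factors tested 0 had an unadjusted p under 0.05, and the 2 with the smallest p were Mtrf1, a release factor homologue (0.18, adjusted p 0.648 in limma), and Tufm, the elongation factor that brings tRNA to the ribosome (-0.23, adjusted p 0.820 in limma). Tufm was listed at 11.1, 21.1 and 18.8 FPKM in the controls against 19.1, 9.87 and 12.1 in the double mutants, with wide overlap.

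Among 19 mitochondrial tRNA synthetases and amidotransferase subunits tested, 1 was higher at an unadjusted p under 0.05. That was 5.26%, against 6.95% of all genes tested. The gene was Iars2, which charges tRNA with isoleucine, at 24.2, 25.3 and 23.2 FPKM in the controls against 26.0, 34.8 and 34.4 in the double mutants. Every double mutant lay above every control, with a log2 difference of 0.44 (SE 0.178) and an adjusted p of 0.389 in limma. Aars2, the alanine enzyme, whose defects cause infantile cardiomyopathy, was listed at 3.32, 3.69 and 2.44 FPKM in the controls against 2.55, 1.62 and 2.38 in the double mutants. On the scaled values every control lay above every double mutant, with a log2 difference of -0.33 (adjusted p 0.445 in limma).

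Of 22 assembly factors and rRNA modifying enzymes tested 1 was lower at an unadjusted p under 0.05. That was 4.55%, against 5.23% of all genes tested. The gene was Mrm3, a methyltransferase of the large ribosomal RNA. It was listed at 5.74, 5.14 and 4.40 FPKM in the controls against 0, 4.60 and 0 in the double mutants, so its low mean rests on 2 listed zeros. Mtg2, a GTPase of large subunit assembly, followed with a log2 difference of 0.29 (adjusted p 0.523 in limma). Of 9 factors that stabilise mitochondrial messengers, activate translation or insert its products 1 was lower at an unadjusted p under 0.05. That was 11.1%, against 5.23% of all genes tested. The gene was Rmnd1, at 15.9, 11.5 and 12.9 FPKM in the controls against 9.80, 10.5 and 8.05 in the double mutants. Its scaled groups overlapped, with a log2 difference of -0.39 (adjusted p 0.389 in limma). Slirp, which binds and protects mitochondrial messengers, was at 21.1, 18.6 and 8.86 FPKM in the controls against 15.0, 6.22 and 8.05 in the double mutants, with a log2 difference of -0.61 and adjusted p of 0.523 in limma.

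Of 18 genes of mitochondrial transcription and RNA processing tested 1 was higher at an unadjusted p under 0.05. That was 5.56%, against 6.95% of all genes tested. The gene was Fastkd1, which encodes an RNA-binding protein of mitochondria. It was listed at 10.3, 7.22 and 8.51 FPKM in the controls against 9.77, 10.9 and 11.7 in the double mutants. On the scaled values every double mutant lay above every control, with a log2 difference of 0.36 (SE 0.144) and an adjusted p of 0.381 in limma. Tefm, the mitochondrial transcription elongation factor, followed with 0.22 (adjusted p 0.571 in limma). Over these 7 lists together no gene passed an adjusted p of 0.05.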

How the data were processed

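The deposited files hold, for each library, the FPKM of every transcript, with its coverage and an estimated isoform fraction. The build was NCBIM37 and the tools were Cufflinks, TopHat and Bowtie, per the submitters' processing notes. The sources used here do not give versions, strand handling or the placing of ambiguous reads. The files hold no counts, so reads per gene are unknown and no count test was run. Identifiers, or else shared exonic bases of 50% or more, placed transcripts in genes, and symbols came from a later annotation. FPKM were scaled by the median of ratios, and log2(scaled FPKM + 1) was fitted over all genes in R 4.3.3 by limma 3.58.1, its intensity trend switched on, after a trial on simulated data. Copies were found with BLAST 2.17.0. Of 36757 genes, 193 with a transcript absent from a file were left out.

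The members and lists were chosen with earlier results of these data known. Named were members listed at 0, those with the 4 smallest p in each direction, the 2 highest and 2 lowest of each subunit, the 3 most variable, and the 2 smallest p of each list. Other genes were named after their values were seen. Alternatives changed the scaling, pseudocount (0.1 or 5), filter, transcripts summed, weights, trend and libraries left out.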

Additional observations from a re-analysis of the deposited data

How the results depend on the processing

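No paired analysis was possible because the labels number the libraries 1 to 6 and no number is shared between the groups. The median log2 difference of the members lay between -0.14 and 0.12 and the large minus small subunit difference between -0.13 and -0.03 under every alternative run. The count of all genes past the threshold was 5, and it was 3 with a pseudocount of 0.1, 2 with a pseudocount of 5, 9 without a filter on the mean, 1 with a mean FPKM of at least 5, 0 with genes listed at 0 left out, 102 with weighted libraries, and 3 to 10 without 1 library at a time. The count of members past the threshold was 0, except that it was 1 with weighted libraries (Mrps12) and lay between 0 and 1 without 1 library at a time (Mrpl44 without library 2). Lower members at an unadjusted p under 0.05 numbered 2 (5.23% of all genes tested were lower), and 6 with quantile normalization (5.98%), 21 with the same total (13.7%), 4 with a mean FPKM of at least 5 (6.61%), 10 with weighted libraries (9.9%), and 1 to 8 without 1 library at a time, the 8 without library 4 (6.18%) and the 1 without library 5 (3.29%). Higher members numbered 1 (6.95% of all genes tested were higher), and 2 without a filter (4.87%), 2 with a mean FPKM of at least 5 (8.88%), 0 with genes listed at 0 left out (7.23%), 3 with weighted libraries (11.6%), and 0 to 2 without 1 library at a time (4.46% to 7.35%). The cause of these shifts was not tested.

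Some small log2 differences changed sign. With the same total, Mrpl30 was at -0.054 and Mrps10 at -0.025. With quantile normalization, Mrpl30 was at -0.0072 and Mrpl57 at 0.0090. With reference transcripts alone, Mrpl35 was at -0.25, Mrpl51 at -0.089, Mrpl54 at -0.27, Mrpl57 at 0.0073 and Mrps23 at 0.037. With the strongest transcript alone, Mrpl35 was at -0.26, Mrpl54 at -0.28, Mrps10 at -0.55, Mrps23 at 0.021 and Mrps33 at -0.047. Without a filter on the mean Mrpl57 was at 0.0042, and with weighted libraries Mrpl48 was at -0.64. Without 1 library at a time, Mrpl27 ranged from -0.12 to 0.44, Mrpl30 from -0.048 to 0.34, Mrpl35 from -0.16 to 0.49, Mrpl48 from -0.70 to 1.38, Mrpl54 from -0.072 to 0.62, Mrpl57 from -0.15 to 0.11, Mrps18b from -0.92 to 0.89 and Mrps23 from -0.15 to 0.12. Depth per gene is unknown, so it sets no stated limit, and 3 libraries a group leave intervals wider than 0.5 on the log2 scale for most members.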
